A study of Mus musculus with 2 samples.

Results

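The genes described here are 7 genes of cholesterol synthesis and its control, *Hmgcs1*, *Sqle*, *Idi1*, *Insig1*, *Fdft1*, *Sc5d* and *Lss*, out of 10666 genes in the expression table. They were chosen by name, from a list of 8 symbols matched to the Ensembl identifiers of the table. The eighth gene of the list, *Fdps*, was not analysed here. The cells came from 2 replicate cultures of neurospheres, which are balls of neural stem cells and their progeny kept in suspension, derived from dorsal telencephalon of wild-type C57BL/6 mouse embryos at embryonic day 14.5. Both cultures were grown with 10 ng/ml EGF and 10 ng/ml bFGF and were profiled by 10x Genomics 3' single-cell RNA-seq. There was 1 condition and no untreated or control group, so no test between groups was possible and cells were not treated as replicates. The labels do not say whether the cultures came from separate litters, and the number of embryos pooled in each is not given in the sources used here.

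Cholesterol is built from acetyl-CoA through mevalonate, isoprenoid units, squalene and a series of sterol intermediates, all of them made by enzymes in or near the endoplasmic reticulum. When sterols in that membrane are scarce, the escort protein Scap carries the precursor of the transcription factor SREBP-2 to the Golgi, where it is cleaved, and the released factor enters the nucleus and binds sterol regulatory elements near the genes of the pathway. When sterols are plentiful, Insig proteins hold Scap and SREBP in the endoplasmic reticulum. Cells of the nervous system make most of their own cholesterol, since the blood-brain barrier keeps out the lipoproteins of the circulation.

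Culture 1 held 5748 cells and culture 2 held 7057, with a median of 19477 and 14637 total unique molecular identifiers (UMIs) per cell. The barcodes of 48 cells occurred in both libraries. Of the radial glia markers, 6 of 8 were in the table, and at least 3 of them were detected in 97.6% of cells of culture 1 and in 99.4% of culture 2. *Fabp7*, *Vim*, *Nes* and *Slc1a3* were each found in 89.8% of cells or more in both cultures. *Hes1* was found in 44.5% and 50.5%, and *Pax6* in 21.1% and 23.1%. The count thus rests on genes found in nearly every cell and does not give the share of radial glia. At least 3 of the 5 oligodendrocyte precursor markers in the table were detected in 5.31% and 0.935% of cells. None of the listed markers of microglia, endothelium or mesenchyme was in the table.

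The stretches upstream of the transcription start are shown first, because the control of these genes is usually described through short motifs found there. RefSeq windows of 250 bases before the start were at hand for 5 of the 7 genes, *Hmgcs1*, *Idi1*, *Insig1*, *Sc5d* and *Lss*, on the build GRCm38.p6. They were searched on both strands for TCACNCCAC, a form of the sterol regulatory element, for the CCAAT box (CCAAT) and for the GC box (GGGCGG). The windows below are written 5′ to 3′ on the strand of the gene, end before the first start in either RefSeq or GENCODE, and carry every match in capitals.
Hmgcs1, chr13:119690101-119690350, plus strand: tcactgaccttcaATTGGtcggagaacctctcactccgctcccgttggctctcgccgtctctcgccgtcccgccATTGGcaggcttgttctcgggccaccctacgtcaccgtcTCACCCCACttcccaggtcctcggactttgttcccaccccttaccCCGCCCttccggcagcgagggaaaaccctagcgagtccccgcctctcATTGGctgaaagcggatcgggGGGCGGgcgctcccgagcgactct
Insig1, chr5:28071162-28071362, plus strand: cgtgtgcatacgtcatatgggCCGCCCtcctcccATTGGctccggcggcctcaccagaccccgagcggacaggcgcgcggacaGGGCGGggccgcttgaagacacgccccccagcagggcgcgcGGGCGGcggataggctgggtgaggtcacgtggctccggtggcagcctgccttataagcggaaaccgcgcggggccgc
Sc5d, chr9:42264301-42264550, minus strand: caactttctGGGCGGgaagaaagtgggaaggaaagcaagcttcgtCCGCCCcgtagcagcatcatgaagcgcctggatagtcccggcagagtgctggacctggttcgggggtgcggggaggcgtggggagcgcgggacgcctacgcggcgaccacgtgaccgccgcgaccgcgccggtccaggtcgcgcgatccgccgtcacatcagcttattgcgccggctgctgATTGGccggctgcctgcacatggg
Lss, chr10:76531355-76531587, plus strand: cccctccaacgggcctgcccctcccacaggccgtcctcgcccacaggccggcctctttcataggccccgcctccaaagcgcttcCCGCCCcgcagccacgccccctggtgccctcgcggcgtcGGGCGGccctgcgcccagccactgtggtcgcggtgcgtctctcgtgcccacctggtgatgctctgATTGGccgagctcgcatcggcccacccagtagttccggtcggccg

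The searched form of the sterol regulatory element was found in 1 of the 5 windows, that of *Hmgcs1*, as TCACCCCAC at 137 to 129 bases before the RefSeq start. Other forms of the element were not searched for, so the other windows lack only this spelling. Over all 32851 promoter windows of the same length, 346 (1.05%) held a match on either strand. The CCAAT box was found in 5 of 5 windows, each time in the opposite orientation (ATTGG), and in 33.8% of all windows. In *Hmgcs1* it occurred 3 times, the nearest at 45 to 41 bases before the start. *Idi1* held 2 copies, at 45 to 41 and at 14 to 10 bases before the RefSeq start, within the part that GENCODE assigns to the gene and that is not shown. The nearest copy lay at 24 to 20 bases in *Sc5d*, at 62 to 58 bases in *Lss* and at 216 to 212 bases in *Insig1*. The GC box was found in 5 of 5 windows and in 32.7% of all windows. The motifs did not overlap one another in the shown stretches. A match of letters is a description and not evidence of binding, which was not measured in these cells.

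*Hmgcs1* (ENSMUSG00000093930, chr13:119690379-119708260), an early enzyme on the way to mevalonate, had the highest values of the 7 genes. It was detected in 96.6% of cells of culture 1 and in 97.7% of culture 2. Its deposited value, which the authors had scaled by cell depth, averaged 10.0 and 7.59, and the mean of log2(value + 1) was 3.14 in culture 1 and 2.80 in culture 2. No SD over the cultures is given for these levels, because the deposited scale of a gene differs between the cultures. *Sqle* (ENSMUSG00000022351, chr15:59315077-59331192), the squalene epoxidase, was detected in 91.6% and 85.7% of cells, with means of 1.96 and 1.75 on the same log2 scale. *Idi1* (ENSMUSG00000058258, chr13:8885501-8892451), which interconverts the isoprenoid units, was detected in 84.1% and 89.3% of cells, with means of 1.95 and 1.80. The order of *Sqle* and *Idi1* turned between the cultures in detection and in the log2 means, which were nearly level in culture 1. In mean deposited value *Idi1* was the higher in both cultures, at 4.1 and 3.3 against 3.7 and 3.1. *Fdft1* (ENSMUSG00000021273, chr14:63145150-63179578), the squalene synthase, was detected in 80.8% and 87.0% of cells, with means of 1.68 and 1.64. Values between genes are not scaled by transcript length, and a 3' assay counts molecules rather than fragments.

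The remaining 3 genes were seen in fewer cells. *Insig1* (ENSMUSG00000045294, chr5:28071363-28078662), the sterol-responsive retention protein and the only one of the 7 that is not an enzyme, was detected in 65.9% and 70.7% of cells, with mean log2 values of 1.14 and 1.12. *Sc5d* (ENSMUSG00000032018, chr9:42251595-42264256), which introduces a late double bond into the sterol ring, was detected in 66.5% and 58.5% of cells, with means of 1.01 and 0.87. *Lss* (ENSMUSG00000033105, chr10:76531588-76557138), the cyclase that makes lanosterol, was detected in 43.9% and 59.1% of cells, with means of 0.71 and 0.75. *Sc5d* was detected in more cells than *Lss* in culture 1, and in culture 2 the shares of the pair were close. All 7 genes were detected together in 23.3% of cells of culture 1 and in 26.7% of culture 2, and none of them in 25 and 7 cells. The cells with none had a median of 9315 total UMIs in culture 1 against 22208 in the cells with all 7, and 12624 against 16071 in culture 2. *Hmgcs1* and *Fdft1* each overlap 1 other gene of the table in GENCODE, in both cases on the opposite strand.

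The deposited values of a gene are spaced in steps that are specific to the gene and to the culture, so the 2 cultures are not on one scale for a given gene. Of 7829 genes with a clear step in both cultures, the log2 ratio of the cultures had an SD of 0.20 in the deposited values and of 0.47 in UMIs estimated from the steps. The direction of a difference between the cultures depended on the scale. In deposited mean values 0 of the 7 genes were higher in culture 2, against 29.2% of the 7829, and in estimated UMIs per 10000 total UMIs 5 of the 7 were, against 41.8%. Across the 7829 genes the log2 ratio of the steps and that of the estimated UMIs had a correlation of -0.91, and the steps enter both. *Hmgcs1* and *Idi1* have no clear step by the rule for the 7829 genes. Of the 5 genes that do, 3 were higher in culture 2 in estimated UMIs, and the median log2 ratio of culture 2 to culture 1 was 0.46 over these 5, against -0.08 for the 7829. The share of cells with a value above 0 needs no scale, and it was higher in culture 2, the shallower library, for 5 of the 7 genes. It was higher there for 3 of the 5 genes with a clear step, against 11.6% of the 7829. *Lss* had 0.351 estimated UMIs per 10000 in culture 1 and 0.705 in culture 2, a ratio of 2.01, and so lay below *Sc5d* in culture 1 and above it in culture 2. *Fdft1* had 1.26 and 1.83, *Insig1* 0.752 and 1.03, and *Idi1* 1.68 and 2.23. *Sqle* was lower in culture 2, at 1.93 and 1.62, and *Sc5d* nearly level at 0.687 and 0.659. *Hmgcs1* had 4.29 and 4.99, but within 0.15 of a whole number lay only 56.0% and 52.1% of its values of up to 5 steps, against at least 97.3% for *Sqle*, *Insig1*, *Sc5d* and *Lss*, so its estimate is the least certain. For *Idi1* the shares were 71.1% and 73.9%. Each ratio compares 1 culture with 1 culture and has no replicate check.

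The estimated UMIs also give the detection at a common depth, which is no separate evidence from them. It was higher in culture 2 for 5 of the 7 genes, and for 3 of the 5 with a clear step, against 38.8% of the 7829. With every cell of at least 10000 total UMIs reduced to 10000 by expectation, *Lss* would be detected in 27.5% of 5395 cells of culture 1 and in 46.9% of 6422 cells of culture 2. *Fdft1* gave 64.6% and 78.5%, *Idi1* 70.6% and 81.4%, and *Insig1* 47.0% and 57.5%. *Hmgcs1* gave 92.5% and 95.2%. The 2 genes that were not higher were *Sqle*, at 79.1% and 75.9%, and *Sc5d*, at 46.8% and 46.1%, where the deposited values had it in 66.5% and 58.5% of cells.

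**Figure D1:**
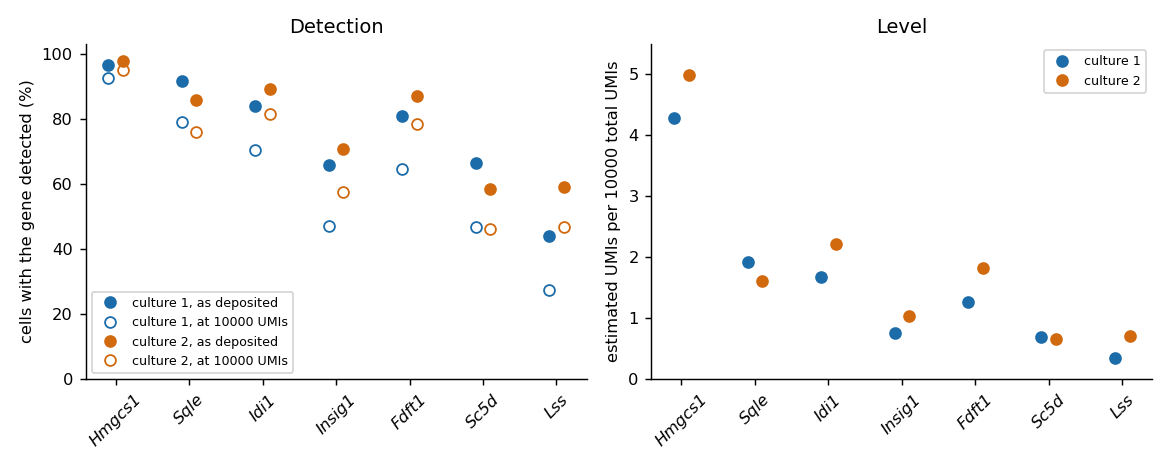
Share of cells with each gene detected (left, percent of cells, closed circles as deposited and open circles at 10000 UMIs per cell) and estimated UMIs per 10000 total UMIs (right), for culture 1 in blue and culture 2 in orange, 1 point per culture. *Hmgcs1* stands highest in both panels, and *Lss* shows the widest relative gap between the cultures, at 0.351 and 0.705 UMIs per 10000.

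The main question for these genes was whether they vary together from cell to cell. All 21 pairs had a Pearson correlation over cells of at least 0.1 in both cultures, which 0.173% of all 56876445 pairs of genes in the table reached. The median over the 21 pairs was 0.323 in culture 1 and 0.247 in culture 2 (0.285 ± 0.054, SD, n = 2), against medians of 0.0014 and 0.0018 over all pairs. Neither the pairs of all genes nor the other genes set beside the 7 below were matched to them for detection. Both include genes seen in few cells, for which depth limits the correlation that can be detected. *Hmgcs1* and *Idi1*, both of the early, isoprenoid part of the pathway, were the closest pair in each culture, at 0.56 and 0.44. The lowest pair was *Insig1* with *Lss* in culture 1, at 0.18, and *Sc5d* with *Lss* in culture 2, at 0.16. Of the 21 pairs, 20 had the higher correlation in culture 1, the more deeply sequenced library. With total UMIs and the number of detected genes regressed out, the medians were 0.319 and 0.243. The cells of each correlation share a library, so the values describe each culture and are given without a p-value.

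**Figure D2:**
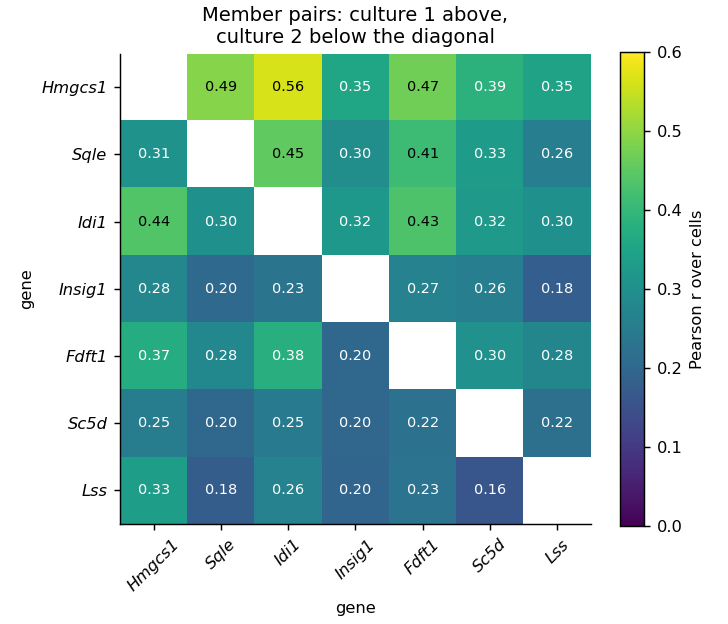
Pearson correlation of log2(value + 1) over cells for each pair of the 7 genes (both axes), on a colour scale from 0 to 0.6, with the 5748 cells of culture 1 above the diagonal and the 7057 cells of culture 2 below it. Pairs of *Hmgcs1*, *Idi1*, *Sqle* and *Fdft1* carry the highest values in culture 1, between 0.41 and 0.56.

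Each gene was then set against the mean of the other 6, with every gene standardized within its culture. All 7 reached a correlation of at least 0.1 in both cultures, where 0.657% of the 10659 other genes of the table did so with the mean of all 7. *Hmgcs1* followed the others most closely, at 0.67 in culture 1 and 0.55 in culture 2. *Idi1* had 0.60 and 0.51, *Fdft1* 0.54 and 0.46, *Sqle* 0.56 and 0.39, *Sc5d* 0.44 and 0.34, *Insig1* 0.40 and 0.35, and *Lss* 0.38 and 0.36. The order of the last 3 differed between the cultures. The correlation of each gene with log2 total UMIs lay between -0.08 and 0.11. With total UMIs and the number of detected genes regressed out, the median over pairs was 0.281, and the same figure was obtained with the cell-cycle position regressed out.

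The size of the joint variation is easier to see in cells ranked by the other 6 genes. In the 10% of culture 1 cells with the lowest mean of the other genes (574 cells), *Idi1* was detected in 47.9% of cells (exact 95% interval 43.8% to 52.1%), and in the highest 10% in 98.8% (97.5% to 99.5%). In culture 2, with 705 cells at each end, the shares were 66.5% (62.9% to 70.0%) and 97.9% (96.5% to 98.8%). The mean deposited value of *Idi1* was 7.66 times as high in the highest as in the lowest 10% of culture 1, and 5.19 times as high in culture 2. *Lss* was detected in 17.8% of the lowest and 69.9% of the highest cells of culture 1, and culture 2 gave 30.1% and 79.6%. For *Insig1* the shares were 34.5% and 86.1%, then 45.7% and 87.2%. *Hmgcs1*, found in nearly every cell, went from 84.7% to 100% and from 90.8% to 99.9%, and its mean value was 5.30 and 3.8 times as high. Over the 7 genes the ratio of mean values lay between 4.20 and 7.66 in culture 1, and between 3.30 and 5.19 in culture 2. Intervals cover counting error only.

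Depth differed between the 2 ends of the ranking, in opposite directions in the 2 cultures. For *Idi1* the median total UMIs were 16046 in the lowest and 18722 in the highest 10% of culture 1, and 14351 and 13588 in culture 2. No cell type that lacks these genes was at hand to measure detection from free RNA.

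**Figure D3:**
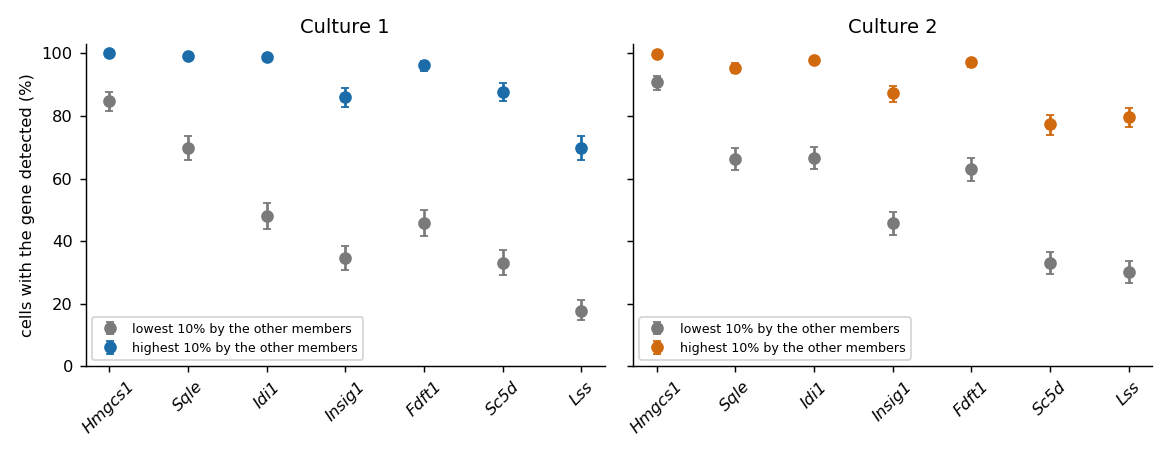
Share of cells in which each gene was detected (vertical axis, percent) in the 10% of cells with the lowest (grey) and the highest (coloured) mean of the other 6 genes, for culture 1 (left, 574 cells at each end) and culture 2 (right, 705 cells at each end). Bars are exact 95% binomial intervals, and in every gene of both cultures the interval of the highest 10% lies above that of the lowest.

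The rest of the pathway was read from a list of 17 other genes, of sterol synthesis and of electron transfer, all of them in the table. Of these, 14 had a correlation of at least 0.1 with the mean of the 7 genes in both cultures, with medians over the list of 0.43 and 0.37 against -0.0013 and -0.0016 over all other genes. Of the 10659 genes outside the 7, the 10 with the highest correlation in their lower culture were all from this list. *Msmo1*, the sterol methyl oxidase, led with 0.70 in culture 1 and 0.55 in culture 2. It was followed by *Mvd*, the mevalonate diphosphate decarboxylase, at 0.55 and 0.54, and *Cyp51*, the lanosterol demethylase, at 0.63 and 0.50. *Acat2*, which makes acetoacetyl-CoA, had 0.48 and 0.47, and *Erg28*, a scaffold of the demethylation complex, 0.44 and 0.48.

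*Dhcr7*, a sterol reductase of the last steps, had 0.50 and 0.38. The kinases of mevalonate followed, *Mvk* at 0.43 and 0.37 and *Pmvk* at 0.36 and 0.42, and then the dehydrogenase *Nsdhl* at 0.47 and 0.34. *Hsd17b7* had 0.34 and 0.27, *Ebp* 0.18 and 0.24, and the sterol reductase *Tm7sf2* 0.14 and 0.15. The 3 genes that did not reach 0.1 in both cultures were those of electron transfer, which are not enzymes of a pathway step. They were *Por*, at 0.17 and 0.099, *Fdx1*, at 0.02 and 0.03, and *Fdxr*, at 0.03 and 0.01. For 6 of the 7 genes, the gene outside the set that it followed most closely is given here, and it was again a sterol enzyme. This was *Msmo1* for *Sqle*, *Idi1*, *Fdft1* and *Sc5d*, with correlations from 0.26 to 0.55, and *Mvd* for *Hmgcs1* (0.48 and 0.41) and *Lss* (0.31 and 0.30).

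**Figure D4:**
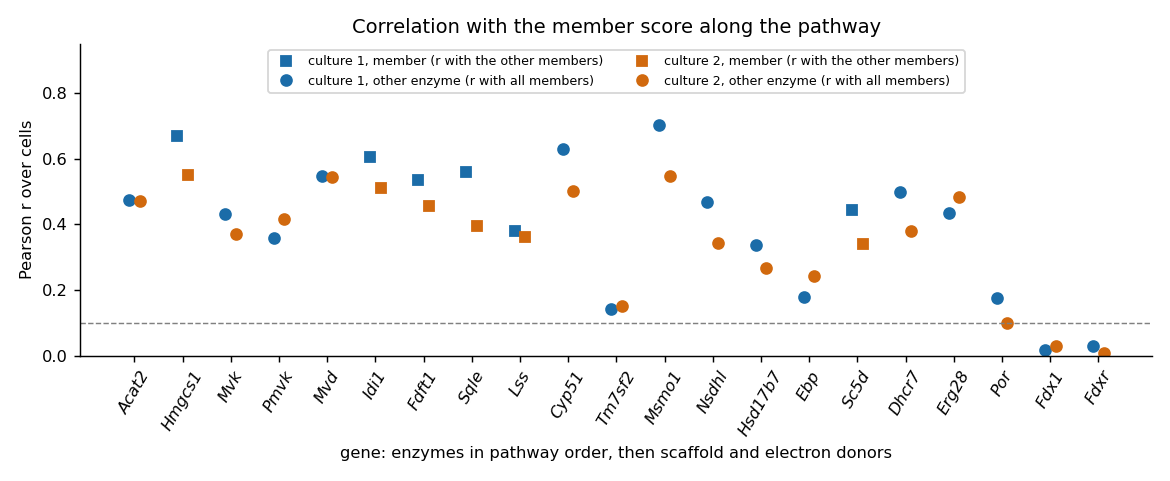
Pearson correlation over cells (vertical axis) along enzyme genes in pathway order, followed by the scaffold *Erg28* and the electron donors *Por*, *Fdx1* and *Fdxr*, for culture 1 in blue and culture 2 in orange. Squares are the 6 enzymes among the described genes, each against the mean of the other described genes, circles are other genes of the sterol list against the mean of all 7, not all of which are drawn, and the dashed line marks 0.1. The points of *Fdx1* and *Fdxr* and that of *Por* in culture 2 lie below the line, and the other points drawn lie above it.

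Among 14 genes of sterol uptake and SREBP control in the table, 4 reached 0.1 in both cultures. They included *Stard4*, a sterol carrier (0.36 and 0.33), *Tmem97* (0.21 and 0.15) and *Npc2*, which binds cholesterol in lysosomes (0.10 and 0.12). *Srebf2*, which encodes SREBP-2 itself, had 0.14 and 0.09. The machinery that moves and cleaves it lay near 0, with *Scap* at 0.03 and -0.01, *Mbtps1* at -0.02 and -0.0009, *Mbtps2* at -0.005 and 0.004, and *Insig2*, the paralogue of *Insig1*, at 0.01 and 0.006. These 4 genes were detected in 13.3% to 38.5% of cells, so a weak correlation might not have been detectable.

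Fatty acid genes, usually ascribed to SREBP-1, were also correlated with the set. Of 12 in the table, 8 reached 0.1 in both cultures, and the list had medians of 0.18 and 0.16. *Elovl6*, a fatty acid elongase, had 0.34 and 0.36, the desaturases *Scd2* 0.31 and 0.32 and *Fads2* 0.34 and 0.31, and *Acly*, which makes cytosolic acetyl-CoA, 0.34 and 0.30. *Acsl3*, *Fads1*, *Acss2* and *Elovl5* ran from 0.13 to 0.27. *Acaca*, *Lpin1*, *Me1* and *Gpam* did not reach 0.1 in both, and *Lpin1* was near it at 0.10 and 0.09. *Fasn*, *Scd1* and *Srebf1* were not analysed here.

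Genes that draw on the same pathway for other ends, or that remove sterol, were read in the same way. Of 7 genes of the isoprenoid branch, which makes prenyl groups, dolichol and ubiquinone, 0 reached 0.1, with correlations between -0.02 and 0.05. In both cultures 0.657% of all genes outside the described set did, a share at which 0 of 7 does not set the branch apart. The branch genes were detected in 6.25% to 57.5% of cells, so a weak correlation might not have been detectable. Of 6 targets of LXR, the receptor that answers to excess sterol, 1 did, *Lpcat3*, at 0.16 and 0.14. The cholesterol exporter *Abca1* had -0.11 and -0.02, but was detected in 8.11% and 0.383% of cells. *Apoe* was detected in 72.3% and 40.6% of cells and had -0.01 and 0.009. *Soat1*, which esterifies cholesterol, had 0.01 and -0.03.

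In all, 70 of the 10659 genes reached 0.1 in both cultures, 27 of them in one of these lists, and 19 of the 23 that reached 0.2 were in a list. The other 4 of the 23, named after their values were seen, were *Aacs*, which activates acetoacetate for lipid synthesis (0.40 and 0.29), *Pcyt2*, of phosphatidylethanolamine synthesis (0.31 and 0.27), *Idh1*, a cytosolic source of NADPH (0.26 and 0.26), and *Mid1ip1*, a regulator of acetyl-CoA carboxylase (0.24 and 0.20). At the other end, 12 genes (0.113%) had a correlation of -0.1 or lower in both cultures. The 5 lowest were the mitotic genes *Prc1* (-0.13 and -0.12), *Nusap1* (-0.13 and -0.11) and *Top2a* (-0.12 and -0.11) and the ribosomal protein genes *Rpl37* (-0.11 and -0.12) and *Rps14* (-0.18 and -0.11). Values of this size, of either sign, carry little weight on their own.

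The cell-cycle position explained a small part of the variance of each of the 7 genes. The cell-cycle position is the deposited angle between 0 and 2π, and a fit of 2 harmonics of it explained between 0.0033 and 0.027 of the variance of each gene (R²), the highest being *Hmgcs1* in culture 1. None of the 7 (0 of 7) reached 0.05 in both cultures, as 4.02% of the other genes did, a share at which 0 of 7 does not set these genes apart. The median R² over all genes was 0.0032 in culture 1 and 0.0024 in culture 2. Each of the 7 genes lay above the median in both cultures, *Insig1* in culture 1 only just, at 0.0033. That median is over genes of any detection, not matched to the 7, so lying above it does not set them apart. In 8 classes of equal width, the mean log2 value over the 7 genes was lowest between π and 1.25π in each culture, at 1.47 in 1064 cells of culture 1 and at 1.41 in 1120 cells of culture 2. The highest class was 0.5π to 0.75π in culture 1, at 1.76 in 709 cells, and 0.25π to 0.5π in culture 2, at 1.63 in 408 cells. The range over classes was 0.288 and 0.212, or 0.25 ± 0.053 (SD, n = 2). Cells of the lowest class had a median of 20527 and 17813 total UMIs, against 20253 and 14927 in the highest.

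For single genes, the class between π and 1.25π was the lowest for 6 of 7 in culture 1 and for 5 of 7 in culture 2, and for 4 of 7 in both. The exceptions fell in classes of 64 and 189 cells, between 1.5π and 1.75π, *Sqle* in culture 1 and *Insig1* and *Lss* in culture 2. Between π and 1.25π, *Hmgcs1* fell to 2.80 from 3.27 in the highest class of culture 1, and to 2.61 from 2.93 in culture 2. Its SD over all cells of culture 1 was 1.06. The periodic loess line of *Idi1* was highest at 0.52π and 0.42π, that of *Sc5d* at 0.51π and 0.41π, and that of *Insig1* at 0.54π and 0.56π. The line of *Fdft1* was highest at 0.56π in culture 1 and at 0 in culture 2, so the cultures did not give it one maximum.

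The deposited SchwabeCC stages, which come from a separate method and leave 2451 and 3151 cells without a stage, gave the mean over the 7 genes as highest in M.G1 in both cultures, at 1.81 and 1.6, and lowest in G2, at 1.51 and 1.47. Cells in S had 1.56 and 1.58. The joint variation was present in each stage, with median pairwise correlations between 0.296 and 0.331 over the 5 stages of culture 1 and between 0.230 and 0.269 in culture 2. The lowest single pair in any stage was 0.10, in the 428 cells in S of culture 2.

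**Figure D5:**
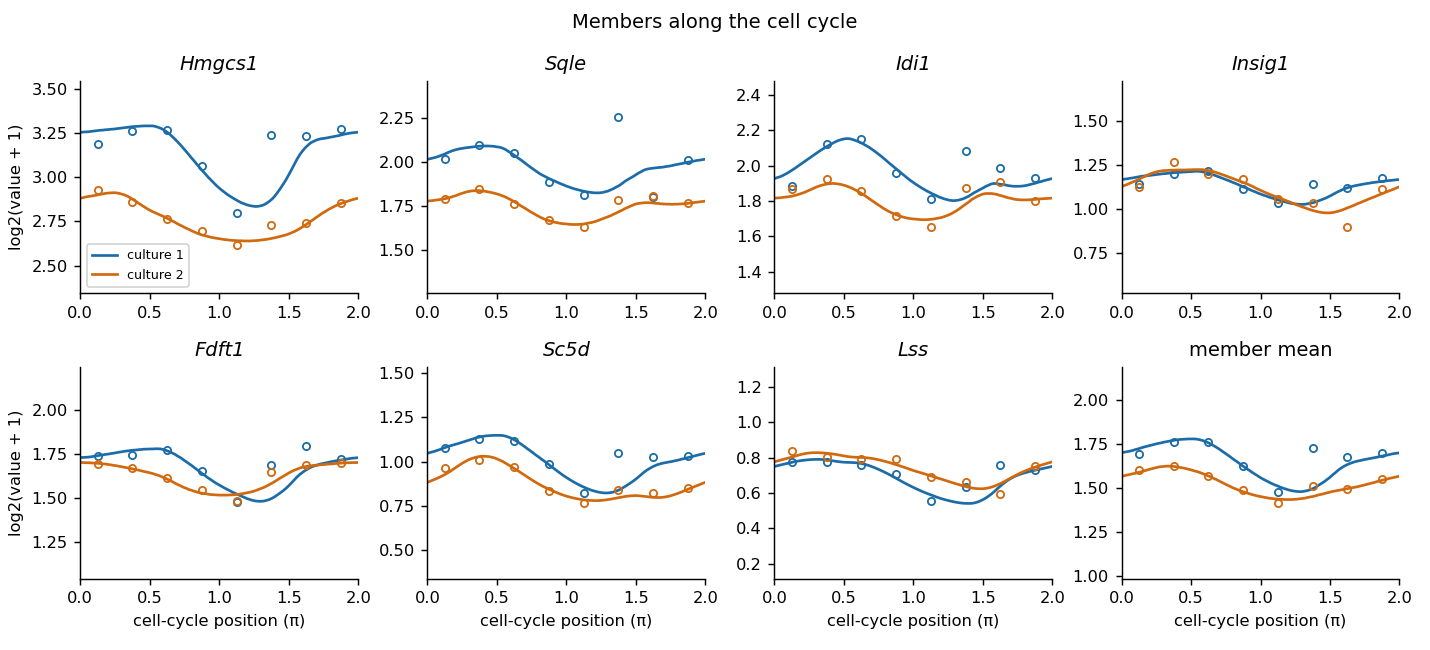
Periodic loess line (span 0.3) and class means (circles) of log2(value + 1) against cell-cycle position in units of π, for each gene and for the mean of the 7, in culture 1 (blue) and culture 2 (orange), with every panel 1.2 log2 units tall. The mean dips to 1.47 and 1.41 between π and 1.25π, and the circles between 1.25π and 1.75π of culture 1 rest on 85 and 64 cells.

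The cells were not of one kind, so markers of cell types were set against the 7 genes as well, and the difference between the cultures was not tested. The mean of 6 radial glia markers had a correlation with the mean of the 7 genes of 0.20 in culture 1 and 0.07 in culture 2. The markers did not go one way. *Fabp7*, a fatty acid binding protein of radial glia found in nearly all cells, had 0.27 and 0.11, and *Slc1a3* 0.18 and 0.04. *Vim* had 0.11 and 0.05, *Nes* 0.10 and 0.02, *Hes1* 0.03 and -0.03, and *Pax6* -0.06 and -0.03. The mean of 2 neuroblast markers had -0.10 and -0.01, and *Dcx* alone -0.14 and -0.01, with detection in 7.34% and 1.56% of cells. The mean of 5 oligodendrocyte precursor markers had -0.10 and -0.01. In the 305 cells of culture 1 with at least 3 of these detected, the mean log2 value of the 7 genes was 1.55, against 1.66 in the other cells, at a median of 18562 and 19509 UMIs. In culture 2 the 66 such cells had 1.37 against 1.53, at 22480 and 14611 UMIs. The mean of 4 proliferation markers had -0.11 and -0.08. The part of these markers in the correlations among the 7 genes was not tested.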

How the data were processed

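Single cells of 2 replicate neurosphere cultures were measured. The authors quantified spliced counts with Alevin (Salmon 1.3.0) against GRCm38 and, per the paper's methods, removed outlying cells, likely doublets, mitochondrial genes and rare genes. No further doublet caller was run. The submitters' processing notes also name Seurat 3.2.2. The deposited expression values are a signal normalized for depth by the authors on a linear scale, with steps that also differ by gene and culture. The authors also deposited each cell's total UMIs, a sum of estimated counts. The deposited per-cell table also gives cell-cycle position and stage. The labels name version 2 of the kit and the paper version 3.

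Values were used as log2(value + 1), within each culture. The mean of the 7 standardized genes was correlated with all other genes (Pearson), and thresholds of 0.1 for r and 0.05 for R² had to be reached in both cultures. The value of 1 UMI of a gene in a culture was estimated from the spacing of its values after a factor per cell was divided out, a step added after the data were seen. A clear spacing is one whose mean cosine of 2π times value over step is above 0.7 in both cultures. Detection at 10000 UMIs is an expectation over the estimated UMIs, with shallower cells left out. Correlation, R² and spacing were tested on simulated data. Every per-sample column was mapped. Symbols were found for 10662 of 10666 identifiers, and gene positions are those of GENCODE M21, a release other than the authors'. The genes named are the 7, the genes of the lists, the 10 highest and 5 lowest by correlation with the 7, and the closest gene to each of the 7. Some genes of the lists enter the counts but are not reported here by name. The genes and lists were chosen with earlier results of these data known. Alternatives were each culture alone, rank correlation, other thresholds, another pseudocount, a detection filter, rescaled cells, and depth or position regressed out. Python 3.11.15 was used, with the packages pandas 2.3.3, scipy 1.17.1 and numpy 2.4.6.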

Additional observations from a re-analysis of the deposited data

How the results depend on the processing

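No paired analysis was possible because there is 1 group, so no groups share replicate numbers. Under the alternatives run other than leaving out a culture, 69 values that answer a comparison stayed within the SD of the cultures, or within 1.5 times for a count, and 9 did not. With 2 cultures a mean cannot move by more than that SD when a culture is left out, so those values say nothing of stability. The median pairwise correlation ran from 0.247 (without culture 1) to 0.323 (without culture 2), with 0.249 at a pseudocount of 0.1. All 7 genes reached the threshold in every alternative, up to 0.2. An R² of 0.02 in both cultures was reached by 0 of 7, though *Hmgcs1* had 0.027 in culture 1. The count of other genes correlated with the 7 ran from 88 without culture 1 to 187 without culture 2, was 213 at a threshold of 0.05 and 23 at 0.2, and culture 1 alone thus gave over 1.5 times the 70 of both. At 0.2 the uptake and regulator list fell to 2, the fatty acid list to 5 and the LXR list to 0. The other genes varying with position numbered 890 at an R² of 0.02 and 240 at 0.1, against 428. The range over position classes was 0.155 for a loess line of span 0.5 and 0.423 at a pseudocount of 0.1, which spreads low values, and was 0.25 without the classes under 200 cells. Alternatives added after seeing the data, leaving out the shared barcodes (median pairwise correlation 0.285) or dividing by the value of 1 UMI (0.286), moved the correlations by less than that SD. With 2 cultures, every SD rests on 2 values, and depth limits the correlations that can be detected for genes seen in few cells.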
